A study of Danio rerio with 15 samples.

Results

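The genes described here encode the proteasome, the protease complex that degrades proteins tagged with ubiquitin. They were taken as the probe sets whose only annotated gene symbol begins with psma to psmg and a digit, and the brightest probe set over all arrays was kept for each gene. The rule found 50 genes, measured by 61 probe sets, out of 8793 genes with a probe set of their own among 15502 probe sets tested. All 50 were found in the RefSeq gene table by their Entrez identifier, with the same symbol. In 2 cases the symbol reads like a subunit but the product is only a binding partner: *psmc3ip*, which in mouse and yeast (as Hop2) acts in meiotic recombination, and *psme3ip1*, which in human cells binds the activator PSME3. Other subunit genes, such as *psma3*, *psma7* and *psmd14*, were not analysed here.

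Wild type zebrafish embryos of 1 to 2 cells received either buffer alone or a morpholino that blocks translation of *esco2*, which encodes the acetyltransferase that stabilizes cohesin on chromosomes. RNA from whole, dechorionated embryos was hybridized to Affymetrix Zebrafish Genome Arrays, 1 array for each pool of 50 embryos. There were 4 control and 4 morphant pools at 24 hours post fertilization (hpf), and 3 control pools (numbered 1, 3 and 4) and 4 morphant pools at 48 hpf. The question put to the data was whether proteasome transcripts were at other levels in *esco2* morphants than in controls at either age. The controls received no morpholino, so Esco2 depletion and the presence of a morpholino cannot be told apart in these groups. Because whole embryos were pooled, fewer cells of a type and less RNA per cell cannot be told apart either.

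A proteasome is built from a barrel-shaped core particle and a regulatory particle at one or both of its ends. The outer alpha rings of the core gate the entry channel, and the inner beta rings hold the cutting sites. The regulatory particle has a base, with ATPases that unfold the substrate, and a lid, which removes ubiquitin. In dividing cells the complex destroys securin and B-type cyclins, after which separase cleaves cohesin and the chromatids part.

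Values are log2 signals after robust multi-array averaging (RMA), so a difference of 1 is a doubling. Arrays have no counting depth, and their number limits the precision. Each difference was tested with limma over all probe sets, with Benjamini-Hochberg adjustment, and a gene is called raised or lowered where the adjusted p was below 0.05. Levels of different probe sets are not on a common scale and are not ranked here. Across the 50 genes the mean signal ran from 3.87 to 11.22. The 17 Affymetrix Tag control probe sets, which are not aimed at zebrafish genes, had means of 3.42 to 5.05, and 7 proteasome probe sets lay within that range (*psma6l*, *psmb8a*, *psmb9a*, *psmb12*, *psmb13a*, *psme1* and *psmc3ip*). For these 7 a small difference says little about the transcript.

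The arrays of a group correlated closely, with mean correlations of 0.9957 to 0.9975 in 3 groups and 0.9848 to 0.9919 among the 48 hpf controls, where replicate 3 was lowest. The median standard deviation (SD) of the 50 genes within a group was 0.08 at 24 hpf in controls and in morphants, 0.11 in controls at 48 hpf and 0.08 in morphants at 48 hpf. The *esco2* transcript itself was lower in morphants at 24 hpf (8.71 to 8.97 against 9.10 to 9.19, adjusted p = 0.0345 in limma) and higher at 48 hpf (8.28 to 8.68 against 8.01 to 8.23, adjusted p = 0.00643). A translation block need not lower the mRNA, so this gives no check of the depletion. Between morphants and controls at 48 hpf, 6 of 10 neuronal and 4 of 8 leukocyte marker genes were lowered and none of either list raised. Of 13 skeletal muscle markers 2 were raised and 1 lowered, and of 7 erythroid markers 1 was raised and 3 lowered, among them *alas2*, of haem synthesis, at -0.999 (adjusted p = 4.33e-06). Over all genes 14.3% were raised and 11.7% lowered at 48 hpf. The part of such marker shifts in the proteasome values was not tested.

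At 24 hpf the proteasome genes were close to their control levels, and the small differences ran mostly upward. Of the 50 genes, 2 were raised in *esco2* morphants, *psmc1a* and *psmd4a*, and none was lowered. Over all 8793 genes 5.77% were raised and 6.2% lowered. At an unadjusted p below 0.05, 6 proteasome genes were above and 0 below their controls, beside 13.3% and 13.1% of all genes. The median difference was 0.09 against 0.01 over all genes, and 37 of 50 genes (74.0%) were above 0 against 52.0% of all genes. The 50 genes were read on the same arrays and are not separate observations. By array, the median deviation from the gene means was 0.076 to 0.173 in morphants and -0.002 to 0.082 in controls, which overlapped. None of the 50 genes reached a 2-fold change: the differences ran from -0.13 (*psmb10*) to 0.23 (*psmd4a*). The 95% interval of the difference stayed within 1.5-fold either way for all 50 and within 1.2-fold for 29.

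**Figure D1:**
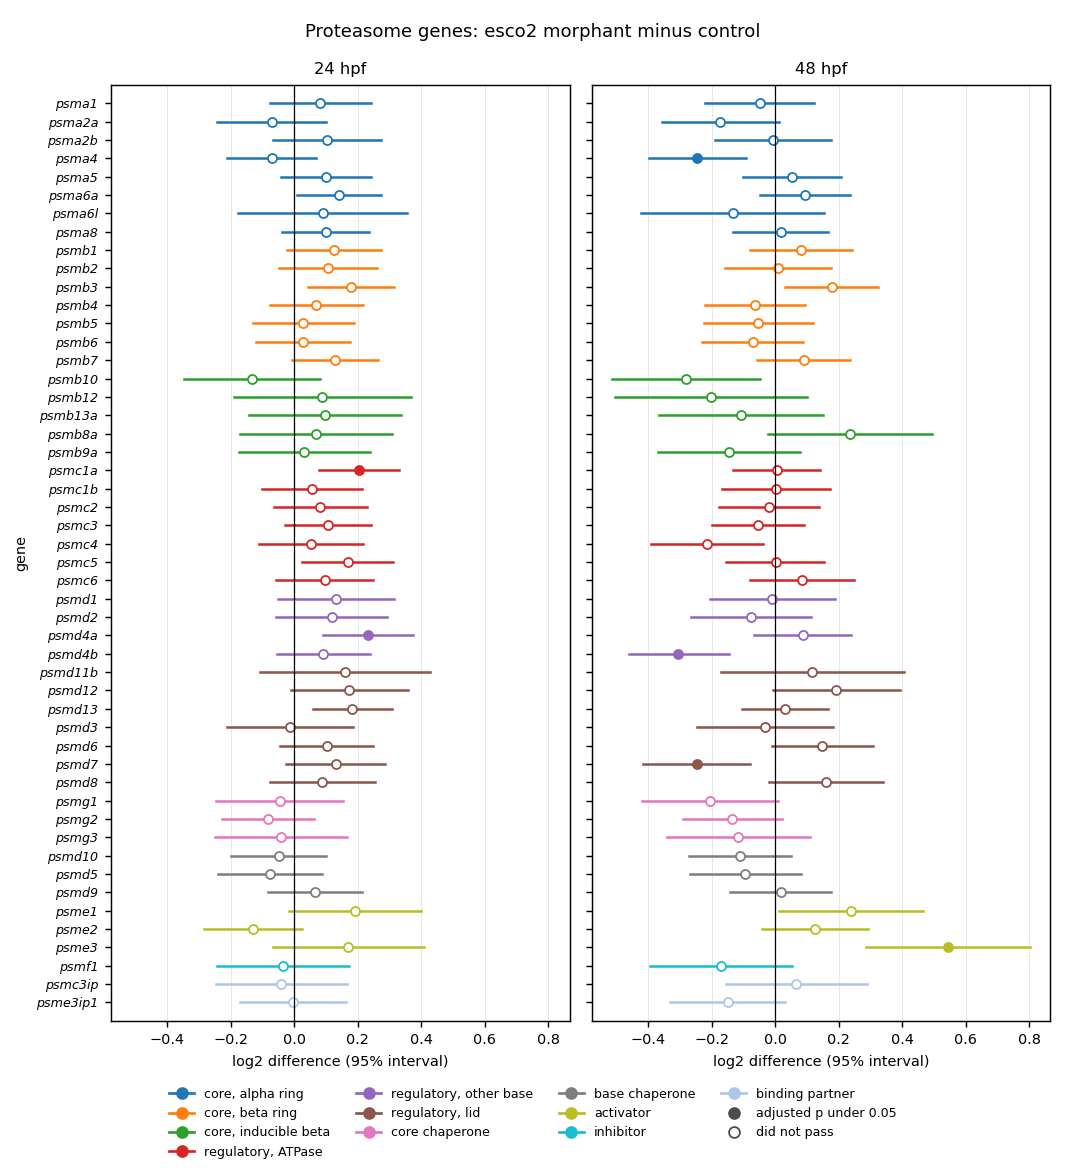
Log2 difference of *esco2* morphants from controls (x axis, with its 95% interval) for each of the 50 proteasome genes (y axis), at 24 hpf on the left and 48 hpf on the right, coloured by role. Filled points passed the test: 2 above 0 at 24 hpf, and 1 above and 3 below 0 at 48 hpf.

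At 48 hpf the direction was mixed. *psme3* was raised and *psmd4b*, *psma4* and *psmd7* were lowered, so 1 of 50 genes was raised where 14.3% of all genes were, and 3 were lowered where 11.7% of all genes were. On a scale centred on the ribosomal protein genes of each array, 11 were raised and 0 lowered. That centring moved the median of all genes up by 0.11, and the share of all genes called on it is not given here. On the RMA scale the median difference was -0.01 against 0.01 over all genes, and 23 of 50 genes were above 0. The differences ran from -0.30 (*psmd4b*) to 0.54 (*psme3*), again with none of 2-fold, and the interval stayed within 1.5-fold for 49 genes and within 1.2-fold for 22. Morphant and control arrays did not overlap for a few genes. At 24 hpf all morphant arrays lay above all control arrays for 8 proteasome genes and below for 1, beside 12.7% and 12.5% of all genes. At 48 hpf they lay above for 3 and below for 4, beside 15.6% and 13.8%.

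The core alpha ring was represented by 8 genes, and 1 of them, *psma4*, was lowered at 48 hpf. It encodes the alpha3 subunit, whose yeast counterpart Pre9 is the only core subunit dispensable for growth. In controls at 48 hpf its log2 values were 10.58, 10.61 and 10.45, and in morphants 10.31, 10.26, 10.24 and 10.40. The groups did not overlap, with the morphants lower, and the log2 difference was -0.24 (SE 0.07, adjusted p = 0.0201). The 24 hpf values were 10.97, 10.99, 10.90 and 10.85 in controls and 10.92, 10.81, 10.80 and 10.88 in morphants. They overlapped, with a log2 difference of -0.07 (SE 0.07, adjusted p = 0.592). The 48 hpf call was lost without control replicate 1 or 3 or morphant replicate 2 or 3 of that age. Over all arrays left out in turn the log2 difference ran from -0.29 to -0.21 and the adjusted p from 0.0112 to 0.0704.

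The other alpha subunits did not pass the test at either age. *psma6a* had 24 hpf values of 10.60, 10.71, 10.54 and 10.65 in controls and 10.74, 10.80, 10.75 and 10.78 in morphants. All 4 morphant arrays were higher, by 0.14 (SE 0.06, adjusted p = 0.187). *psma2a*, 1 of 2 copies of the alpha2 gene, had 48 hpf values of 9.51, 9.62 and 9.31 in controls and 9.36, 9.38, 9.19 and 9.29 in morphants, a log2 difference of -0.17 (SE 0.09, adjusted p = 0.177). Its ranges overlapped because 1 control array was low. *psma1*, *psma2b*, *psma5*, *psma8* (found in testis in the mouse) and the dim *psma6l* had differences between 0.08 and 0.10 at 24 hpf and between -0.13 and 0.05 at 48 hpf.

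No gene of the core beta ring passed the test. All 7 were above 0 at 24 hpf, by 0.03 to 0.18, and 4 of 7 at 48 hpf, where the differences ran from -0.07 to 0.18. *psmb3*, a subunit without a cutting site, was the one furthest from its controls at both ages. Its 24 hpf values were 11.31, 11.39, 11.25 and 11.31 in controls and 11.51, 11.57, 11.42 and 11.46 in morphants, a difference of 0.18 (SE 0.07, adjusted p = 0.0963). Its 48 hpf values were 10.97, 10.88 and 10.90 and 11.16, 11.12, 10.98 and 11.12, a difference of 0.18 (SE 0.07, adjusted p = 0.0775). The groups did not overlap at either age, but the adjusted p missed the threshold at both. Of the catalytic subunits, *psmb7* (trypsin-like activity) had a log2 difference of 0.13 (SE 0.06, adjusted p = 0.258) at 24 hpf, with all morphant arrays above the controls, and *psmb6* (caspase-like) one of 0.03 (SE 0.07, adjusted p = 0.88). *psmb5* encodes the chymotrypsin-like subunit, the main target of proteasome inhibitor drugs. Its 24 hpf values were 9.66, 9.49, 9.56 and 9.46 in controls and 9.70, 9.60, 9.44 and 9.53 in morphants, and its 48 hpf values 9.33, 9.52 and 9.36 and 9.28, 9.30, 9.43 and 9.40. The ranges overlapped at both ages, with differences of 0.03 and -0.05. *psmb1*, *psmb2* and *psmb4* lay between 0.07 and 0.12 at 24 hpf.

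Interferon replaces the catalytic subunits with the inducible *psmb8*, *psmb9* and *psmb10* products in mammals. Zebrafish carries *psmb8a*, *psmb9a* and, next to them in the RefSeq annotation, the related beta subunit genes *psmb12* and *psmb13a*, while *psmb10* lies apart from them. Only *psmb10* (mean 5.22) was brighter than every Tag control probe set. Its 48 hpf values were 5.23, 5.58 and 5.23 in controls and 4.75, 5.14, 5.11 and 5.27 in morphants. The ranges overlapped, with a log2 difference of -0.28 (SE 0.11, adjusted p = 0.0785). The 5.58 was in control replicate 3, whose Tag control median was 4.628, against 4.135 and 4.125 in the other 48 hpf controls. The 48 hpf morphant mean, 5.07, was near the highest Tag mean of 5.05. The part of this background in the difference was not tested. At 24 hpf the *psmb10* values were 5.26, 5.30, 5.39 and 5.28 in controls and 5.20, 5.22, 5.06 and 5.23 in morphants. All 4 morphant arrays were lower, with a log2 difference of -0.13 (SE 0.10, adjusted p = 0.497). None of the 5 genes passed the test at either age, and *psmb8a* had the highest difference at 48 hpf, 0.23 (SE 0.12, adjusted p = 0.188). *psmb9a*, *psmb12* and *psmb13a* were between 0.03 and 0.10 at 24 hpf and between -0.20 and -0.11 at 48 hpf. On the same arrays the interferon-induced *isg15* was raised by 3.48 at 24 hpf and by 0.76 at 48 hpf (adjusted p = 1.85e-13 and 9.09e-05 in limma). *isg20*, an interferon-induced exonuclease gene, was raised by 1.45 and 1.72. Of 8 genes of interferon response and antigen presentation, 3 were raised and 1 lowered at 24 hpf, and 4 were raised and 0 lowered at 48 hpf. Over all genes 5.77% were raised and 6.2% lowered at 24 hpf, and 14.3% and 11.7% at 48 hpf. The lowered gene was *irf1b* (-0.64, adjusted p = 0.00934), which was raised at 48 hpf (0.52, adjusted p = 0.0256).

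The ATPases of the base form the ring that pulls substrates into the core. All 7 genes were above 0 at 24 hpf, by 0.05 to 0.20, and 1, *psmc1a*, passed. It encodes Rpt2, whose tail helps to open the core gate in yeast. Its 24 hpf values were 10.23, 10.12, 10.13 and 10.12 in controls and 10.41, 10.35, 10.34 and 10.32 in morphants. All 4 morphant arrays were higher, and the difference was 0.20 (SE 0.06, adjusted p = 0.0402). At 48 hpf the values were 10.17, 10.14 and 10.17 in controls and 10.25, 10.13, 10.14 and 10.15 in morphants, with a difference of 0.00 (SE 0.06, adjusted p = 0.976). The 24 hpf call was lost in 9 of 15 fits that left out 1 array: control replicate 2, 3 or 4 or any of the 4 morphants at 24 hpf, and control replicate 1 or morphant replicate 2 at 48 hpf. Over the 15 fits the log2 difference ran from 0.18 to 0.23 and the adjusted p from 0.0245 to 0.111. Its second copy, *psmc1b*, had a log2 difference of 0.06 (SE 0.07, adjusted p = 0.74) at 24 hpf. That probe set may also bind related transcripts. A dimmer probe set of *psmc1b* gave 0.12 (adjusted p = 0.422), and another, within the Tag range, gave 0.07 (adjusted p = 0.812).

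Among the other ATPases, *psmc5* (Rpt6) had 24 hpf values of 9.75, 9.69, 9.71 and 9.65 in controls and 9.99, 9.88, 9.78 and 9.82 in morphants. The groups did not overlap, but the difference of 0.17 (SE 0.07, adjusted p = 0.141) did not pass. *psmc4* (Rpt3) had 48 hpf values of 10.22, 10.18 and 10.19 in controls and 9.81, 10.04, 10.07 and 10.01 in morphants. All morphant arrays were lower, but the difference of -0.21 (SE 0.08, adjusted p = 0.0764) also did not pass. *psmc2*, *psmc3* and *psmc6* lay between 0.08 and 0.11 at 24 hpf and between -0.05 and 0.08 at 48 hpf.

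The base also carries ubiquitin receptors and scaffolds, and here both copies of *psmd4* passed a test, at different ages. *psmd4* encodes Rpn10, a receptor that holds the ubiquitin chain. *psmd4a* had 24 hpf values of 9.46, 9.62, 9.42 and 9.52 in controls and 9.75, 9.77, 9.67 and 9.75 in morphants. All morphant arrays were higher, and the difference was 0.23 (SE 0.07, adjusted p = 0.0369). At 48 hpf its values were 9.52, 9.62 and 9.42 and 9.64, 9.62, 9.53 and 9.65, which overlapped, with a difference of 0.09 (SE 0.07, adjusted p = 0.443). The 24 hpf call was lost in 6 of 15 fits that left out 1 array, which were those without control replicate 1, 3 or 4 or morphant replicate 1, 2 or 4 of that age. Over the 15 fits the difference ran from 0.20 to 0.27 and the adjusted p from 0.0174 to 0.12.

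*psmd4b* had 48 hpf values of 9.09, 9.16 and 9.06 in controls and 8.77, 8.74, 8.84 and 8.87 in morphants. Every morphant array was lower, the log2 difference was -0.30 (SE 0.07, adjusted p = 0.00662), and the call held whichever array was left out (adjusted p from 0.00457 to 0.0228). At 24 hpf its values were 9.11, 8.91, 8.91 and 8.88 and 9.04, 9.05, 8.96 and 9.14, with a difference of 0.09 (SE 0.07, adjusted p = 0.494). One control array, replicate 1, lay above the other 3. The morphant shift in the signal of one copy minus that of the other was compared within arrays, after these values were seen, for 3 pairs of copies at both ages. The groups did not overlap for *psmd4a* minus *psmd4b* at 48 hpf (shift 0.39) and for *psmc1a* minus *psmc1b* at 24 hpf (shift 0.15), the pairs that had prompted the comparison. Only the brightest *psmc1b* probe set entered this comparison. None of the 6 exact two-sided permutation tests passed after adjustment (lowest adjusted p = 0.171), and none could. At 48 hpf 4 against 3 arrays cannot go below 0.0571 even before adjustment. At 24 hpf 4 against 4 arrays cannot go below 0.0286, the unadjusted p of *psmc1a* minus *psmc1b*. Adjustment over all 6 tests keeps even that lowest value above the threshold. These tests therefore cannot decide whether the copies shifted differently. The 2 large scaffold genes, *psmd1* (Rpn2) and *psmd2* (Rpn1, which docks shuttle factors), did not pass, with 0.13 and 0.12 at 24 hpf and -0.01 and -0.08 at 48 hpf.

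**Figure D2:**
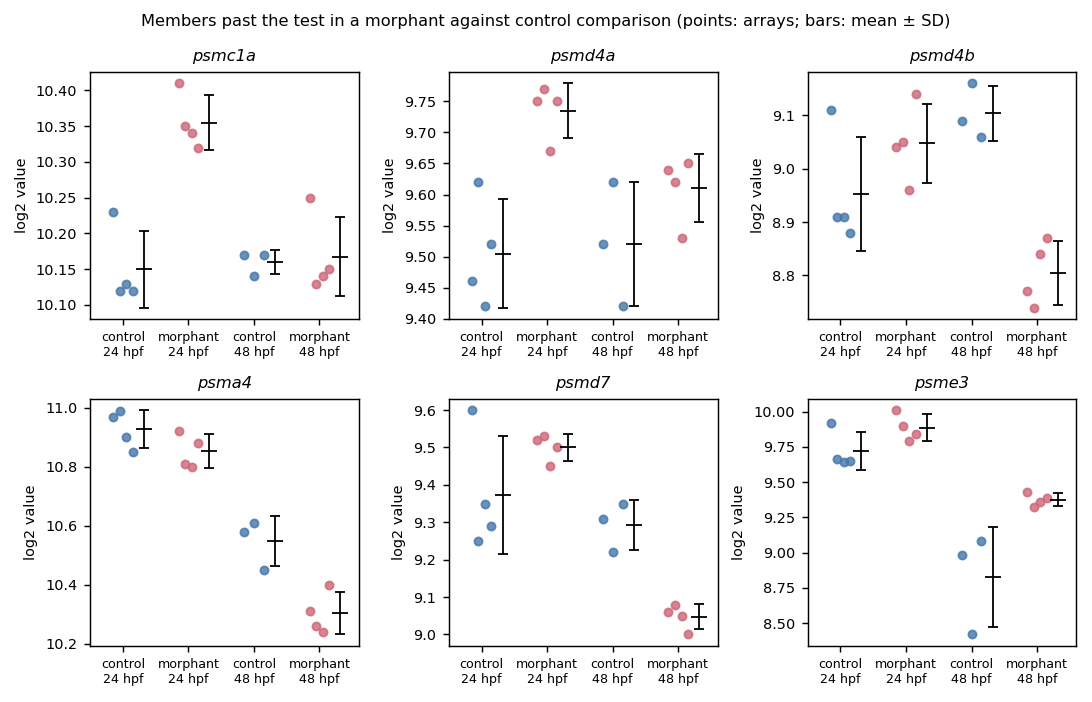
Log2 signal (y axis) of the 6 proteasome genes that passed a test between morphants and controls, in each array by group (x axis). Points are arrays and the bar beside them is the mean ± SD. At 48 hpf the 4 morphant arrays of *psme3* lie between 9.32 and 9.43, all above the controls, and those of *psmd4b* between 8.74 and 8.87, all below.

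The lid holds the ubiquitin-removing enzyme. *psmd7* encodes Rpn8, the partner with which that enzyme forms its working pair, and it was the only one of 7 lid genes that passed. Its 48 hpf values were 9.31, 9.22 and 9.35 in controls and 9.06, 9.08, 9.05 and 9.0 in morphants. All morphant arrays were lower, with a log2 difference of -0.25 (SE 0.08, adjusted p = 0.0331). At 24 hpf the values were 9.60, 9.25, 9.35 and 9.29 in controls and 9.52, 9.53, 9.45 and 9.50 in morphants, with a difference of 0.13 (SE 0.07, adjusted p = 0.328). Replicate 1 of the 24 hpf controls was above every other array. The 48 hpf call was lost in 6 of 15 fits that left out 1 array, which were those without control replicate 1 or 4 or any of the 4 morphants of that age. Over the 15 fits the difference ran from -0.28 to -0.22 and the adjusted p from 0.013 to 0.0894.

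*psmd13* (Rpn9) had 24 hpf values of 9.94, 10.05, 9.95 and 9.92 in controls and 10.17, 10.18, 10.07 and 10.17 in morphants. All morphant arrays were higher, yet the difference of 0.18 (SE 0.06, adjusted p = 0.0637) missed the threshold. *psmd12* (Rpn5), which also did not overlap at 24 hpf, had differences of 0.17 at 24 hpf and 0.19 at 48 hpf, and its second probe set gave 0.14 and 0.13. *psmd3*, *psmd6*, *psmd8* and *psmd11b* lay between -0.01 and 0.16 at 24 hpf and between -0.03 and 0.16 at 48 hpf.

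In 2 genes, of the base and the lid, the test of the difference between the 24 and 48 hpf effects passed on the RMA scale, but both calls were lost relative to ribosomal protein genes and with a replicate block. The effect on *psmd4b* was lower at 48 hpf than at 24 hpf, with a difference of effects of -0.40 (SE 0.10, adjusted p = 0.0277), and so was that on *psmd7*, with -0.38 (SE 0.11, adjusted p = 0.048). Of all genes 3.16% had a lower effect at 48 hpf and 4.05% a higher one. None of the 50 had a higher one by this test. At an unadjusted p below 0.05, 2 had a higher and 4 a lower effect, beside 12.3% and 9.36% of all genes. Only 8 of the 50 had a higher estimate at 48 hpf than at 24 hpf, beside 50.4% of all genes. The median difference was -0.10 against 0.00 over all genes. Relative to ribosomal protein genes it was -0.01 against 0.09 over all genes. For *psmd7* the call was lost in 13 of 15 fits that left out 1 array, all but those without control replicate 1 at 24 hpf or 3 at 48 hpf, and its adjusted p ran from 0.0106 to 0.101. For *psmd4b* it was lost in 7, without control replicate 2, 3 or 4 or morphant replicate 2 or 4 at 24 hpf, or morphant replicate 1 or 2 at 48 hpf (adjusted p from 0.0145 to 0.0628).

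Assembly factors did not pass a test at either age. *psmg1*, *psmg2* and *psmg3* help to build the alpha ring, and *psmd5*, *psmd9* and *psmd10* escort the ATPases into the base. All 6 lay between -0.08 and 0.07 at 24 hpf and between -0.21 and 0.02 at 48 hpf. *psmg2* had 48 hpf values of 7.57, 7.73 and 7.55 in controls and 7.59, 7.48, 7.37 and 7.50 in morphants, a difference of -0.14 (SE 0.07, adjusted p = 0.211). *psmg1* had 7.58, 7.88 and 7.39 and 7.48, 7.41, 7.27 and 7.48, a difference of -0.21 (SE 0.10, adjusted p = 0.167). Both pairs of ranges overlapped. *psmd10*, also known as gankyrin, had 8.02, 7.89 and 8.03 and 7.87, 7.90, 7.84 and 7.88, a difference of -0.11 (SE 0.08, adjusted p = 0.326).

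Activators cap the core in place of the regulatory particle. Of the 50 genes *psme3* had the largest difference between morphants and controls at either age. It encodes PA28gamma, a nuclear activator that in mammals promotes degradation without ubiquitin. Its 48 hpf values were 8.98, 8.42 and 9.08 in controls and 9.43, 9.32, 9.36 and 9.39 in morphants. The morphant arrays were all higher, and 1 control array, replicate 3, was far below the rest. The log2 difference was 0.54 (SE 0.12, adjusted p = 0.0036). It ran from 0.34 to 0.67 when arrays were left out in turn, and the adjusted p from 0.000843 to 0.0112, and without that control the difference was 0.34. At 24 hpf the values were 9.92, 9.66, 9.64 and 9.65 in controls and 10.01, 9.90, 9.79 and 9.84 in morphants, with a difference of 0.17 (SE 0.11, adjusted p = 0.423). The difference between these effects, 0.38 (SE 0.17, adjusted p = 0.217), did not pass.

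*psme1* and *psme2* encode the PA28alpha and PA28beta subunits, which interferon induces in mammals. *psme1* was as dim as the Tag controls, with differences of 0.19 and 0.24 that did not pass, and *psme2* had differences of -0.13 at 24 hpf and 0.12 at 48 hpf. *psmf1* encodes PI31, which inhibits the isolated core in vitro. It had 48 hpf values of 6.66, 6.77 and 6.32 in controls and 6.54, 6.42, 6.20 and 6.49 in morphants, which overlapped, with a difference of -0.17 (SE 0.11, adjusted p = 0.281). Its second, dimmer probe set gave -0.34 with an adjusted p of 0.0348, so the probe sets of this gene were on different sides of the threshold. For *psme3ip1* the brightest probe set gave 0.00 at 24 hpf, and the dimmest of its 4 probe sets, within the Tag range, 0.33 (adjusted p = 0.0242). *psmc3ip* had differences of -0.04 and 0.07.

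On the RMA scale more proteasome genes were called between the ages than between morphants and controls, and the same held over all genes. From 24 to 48 hpf, 17 of the 50 genes were lowered in controls and 1 raised, where 30.3% of all genes were lowered and 21.9% raised. In morphants 28 were lowered and 0 raised, where 27.4% of all genes were lowered and 21.7% raised. At an unadjusted p below 0.05, 0 were raised and 32 lowered in morphants, beside 24.5% and 30.9% of all genes. The median change was -0.13 in controls and -0.23 in morphants, against -0.01 over all genes in each. Relative to ribosomal protein genes it was above 0, at 0.04 and 0.03, against 0.158 and 0.245 over all genes. Brighter genes fell more in general. At or above the median level of all probe sets, 15 of 41 proteasome genes and 2048 of all 5398 genes were lowered in controls. In morphants 27 and 1887 of them were. The medians of these brighter genes were -0.14 against -0.09 in controls and -0.25 against -0.07 in morphants. Centring on ribosomal protein genes moved the median change of all genes up by 0.17 in controls and 0.26 in morphants. On that scale the counts of the 50 genes became 13 lowered and 12 raised in controls and 11 lowered and 9 raised in morphants. The shares of all genes called on it are not given here. With cyclic loess 14 of the 50 were lowered and 4 raised in controls. None of the 50 reached 2-fold. The lowered sets shared 16 genes. In 12 genes the fall passed in morphants and not in controls, and in 1, *psme2*, the reverse held, but the difference between the changes with age is the difference of effects given above, in which only *psmd4b* and *psmd7* passed, and not under every setting. Cell type markers moved over the same interval. In controls and morphants 9 and 10 of 10 neuronal markers were raised (medians 1.26 and 1.25). Of 13 skeletal muscle markers 10 were raised and 2 lowered in each (medians 1.00 and 1.00). Of 7 erythroid markers 4 were raised and 1 lowered in controls, and 5 and 0 in morphants. Of 8 leukocyte markers 3 were raised and 1 lowered in controls, and 3 and 3 in morphants. The part of these markers in the proteasome values was not tested.

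By role, and on the RMA scale, the fall with age took in 5 of 8 alpha, 2 of 7 beta, 0 of 7 ATPase and 2 of 7 lid genes in controls. In morphants it took in 6 of 8 alpha, 6 of 7 beta, 4 of 7 ATPase and 4 of 7 lid genes. Relative to ribosomal protein genes the morphant counts became 4 alpha, 0 beta, 0 ATPase and 2 lid genes, and the control counts 4, 1, 0 and 2. The shares of all genes called on that scale are not given here. With cyclic loess 7 of the 28 morphant calls were lost: *psma8*, *psmb1*, *psmb2*, *psmb5*, *psmb6*, *psmc1a* and *psmc2*. *psme3* had the largest change in controls, -0.89 (SE 0.12, adjusted p = 9.2e-06), and a smaller one in morphants, -0.51 (SE 0.11, adjusted p = 0.00117). *psmd9* had values of 8.15, 7.97, 8.0 and 7.98 in 24 hpf controls and 7.35, 7.25 and 7.41 in 48 hpf controls, a change of -0.69 (SE 0.07, adjusted p = 6.85e-07). In morphants it went from 8.10, 8.16, 8.01 and 8.08 to 7.39, 7.33, 7.46 and 7.24, a change of -0.73 (SE 0.07, adjusted p = 1.28e-07). Its second probe set gave -0.60 and -0.57. The alpha5 gene *psma5* had means of 10.04 ± 0.04 (SD, n = 4) in 24 hpf controls and 9.47 ± 0.09 (SD, n = 3) in 48 hpf controls, a change of -0.57 (SE 0.07, adjusted p = 4.02e-06), and in morphants one of -0.62 (SE 0.07, adjusted p = 7.28e-07). Neither gene overlapped between the ages. The base genes *psmd1*, *psmd2*, *psmd4a* and *psmd4b* were at 0.21, 0.17, 0.02 and 0.15 in controls and did not pass on the RMA scale. Relative to ribosomal protein genes all 4 were raised in controls and 2 in morphants. Of 7 ATPase genes 2 were raised in controls and 0 in morphants on that scale. The median of all genes on it was 0.158 in controls and 0.245 in morphants, so these rises are not a result about the base genes. With cyclic loess *psmd1*, *psmd2* and *psmd4b* were raised in controls and *psmd4a* was not. The single rise on the RMA scale, *psmb9a* in controls (0.27, adjusted p = 0.0453), was in a probe set as dim as the Tag controls. The binding partner gene *psme3ip1* fell in both groups, by 0.50 and 0.64. *psmc3ip* had changes of -0.73 and -0.62 that passed, but its probe set was as dim as the Tag controls and its second one gave -0.04 and 0.12, which did not pass.

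**Figure D3:**
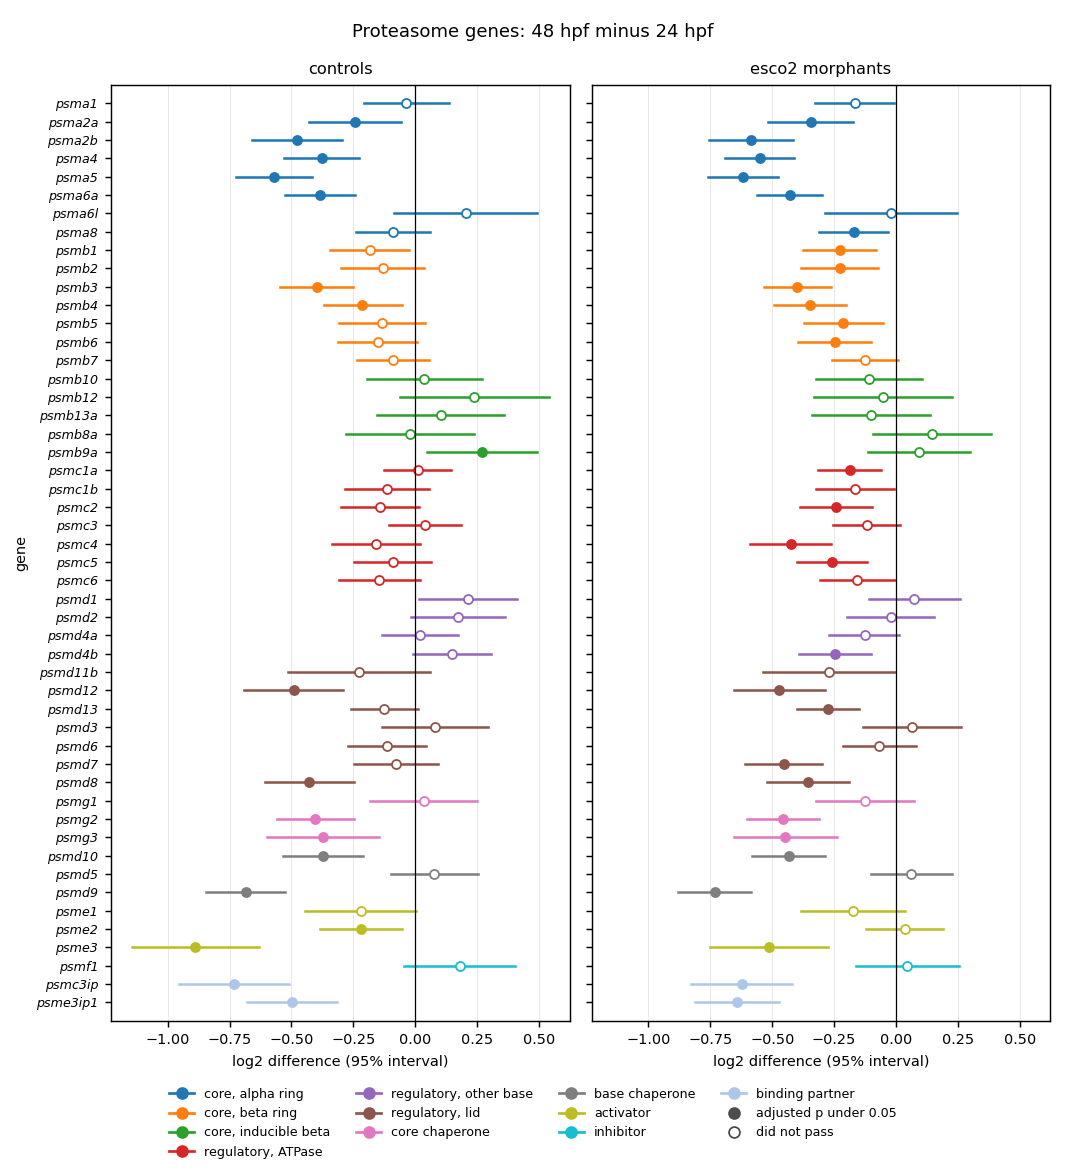
Log2 change from 24 to 48 hpf (x axis, with its 95% interval) of the 50 proteasome genes (y axis) in controls on the left and *esco2* morphants on the right, coloured by role. Filled points passed the test: 17 below and 1 above 0 in controls, and 28 below 0 in morphants. Of all genes 30.3% were lowered in controls and 27.4% in morphants. Relative to ribosomal protein genes 25 of the 50 passed in controls, 13 of them below 0, and 20 in morphants, 11 of them below 0.

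The ribosomal protein genes, another large set of coordinately used transcripts, gave a yardstick on the same arrays, but one that itself moved. Their median change with age was -0.14 in controls and -0.24 in morphants over 66 genes, close to that of the proteasome genes. Of the 66, 26 and 52 were lowered, beside 30.3% and 27.4% of all genes. Between morphants and controls they were at -0.02 at 24 hpf and -0.11 at 48 hpf. At 48 hpf 10 of the 66 were lowered and 0 raised, beside 11.7% and 14.3% of all genes, and only 3 were above 0. All morphant arrays lay below all control arrays for 43 of them and above for 3, beside 13.8% and 15.6% of all genes. Centring each array on them moved the median of all genes by 0.11 at 48 hpf, by 0.17 with age in controls and by 0.26 in morphants. Relative to them 11 proteasome genes were raised and 0 lowered in morphants at 48 hpf. The share of all genes called on that scale is not given here, so this count is not a result about the proteasome genes. On it *psma4*, *psmd4b* and *psmd7* lost their calls while *psme3* kept its call (0.66, adjusted p = 0.000648). The 8 genes of the CCT chaperonin, which folds actin and tubulin, had a median of 0.05 at 24 hpf and 0.08 at 48 hpf.

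**Figure D4:**
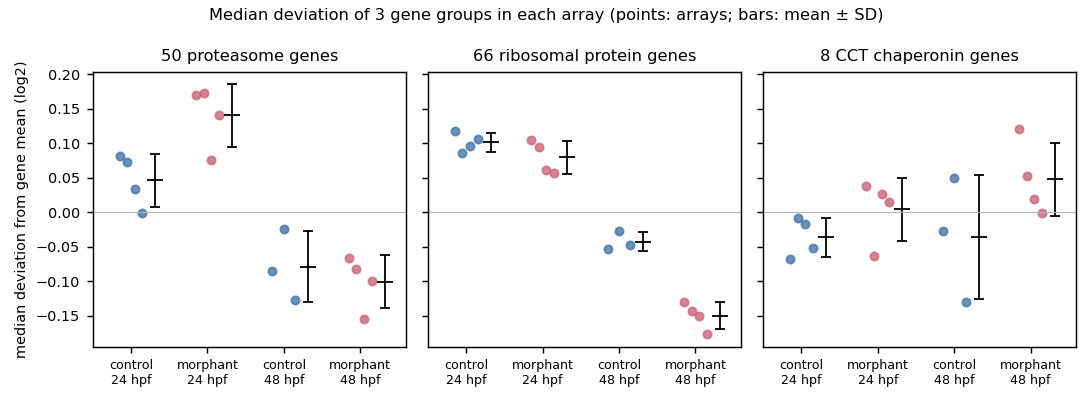
Median deviation of each array from the gene means (y axis, log2) over the 50 proteasome, 66 ribosomal protein and 8 CCT chaperonin genes, by group (x axis). Points are arrays and bars the mean ± SD. The proteasome medians are 0.076 to 0.173 in 24 hpf morphants and -0.002 to 0.082 in 24 hpf controls, so these groups overlap. The proteasome medians of all 48 hpf arrays are below 0.

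Partners of the proteasome outside the 50 genes were called singly or in both directions. Of 12 measured associated factors, 1 was raised at 24 hpf, *adrm1*, which encodes the ubiquitin receptor Rpn13 (0.42, adjusted p = 0.00269 in limma). At 48 hpf *txnl1*, a thioredoxin-like protein bound to the regulatory particle, was raised by 0.41 (adjusted p = 0.00488). *zfand5b*, whose mammalian counterpart stimulates proteasomes, was lowered (-0.51, adjusted p = 6.36e-05). The core assembly factor gene *pomp* was at 0.15 and -0.05 and did not pass. Of 30 ubiquitin and conjugation genes 2 were raised at 24 hpf and 0 lowered, and 5 were raised and 3 lowered at 48 hpf, shares close to those of all genes at that age. Among them *ubb*, a polyubiquitin gene, was raised at 24 hpf (0.24, adjusted p = 0.015), and *ube2s*, which extends ubiquitin chains for the anaphase-promoting complex, was lowered at 48 hpf (-0.35, adjusted p = 0.00426). Of 14 genes of the p97 segregase and shuttle factors only *plaa* passed, lowered at 48 hpf (-0.33, adjusted p = 0.0378). The 4 measured genes of the transcriptional control list, *nfe2l2a*, *keap1a*, *ngly1* and *nfya*, did not pass at either age. Beside these counts, 5.77% of all genes were raised and 6.2% lowered at 24 hpf, and 14.3% and 11.7% at 48 hpf.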

How the data were processed

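The members and gene lists were chosen with earlier results of these data known. The authors made the deposited log2 values from the scanner files with RMA (background correction, quantile normalization and a summary per probe set) after checks with AffyQCReport, and the deposited table was used as it is. The versions of these tools are not given in the sources used here. Probe sets were named through the platform annotation: of 15502 tested, 10795 had 1 symbol, 135 several and 4572 none, and the 115 Affymetrix controls entered no test. All columns were mapped to samples by name.

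A mean per group was fitted over all 15 arrays with limma 3.58.1 (R 4.3.3, lmFit and eBayes), so the groups share 1 estimate of the spread, and p-values were adjusted by Benjamini-Hochberg over all probe sets. The study's own criterion also asked for a 2-fold change, at a 5% false discovery rate, and was applied as an alternative. The procedure was tested on simulated data with independent noise for each value. That simulation held no shared array effects, and its outcome is not used here. Where results of an age were compared, the difference of effects was a contrast of the same model. The copies of a gene were compared by exact permutation (scipy 1.17.1).

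Every member could be named. Arrays are listed for up to 3 members per role, by smallest adjusted p between morphants and controls, and for those with the largest changes, and list genes by the same order. Counts over all genes use 1 probe set per gene. No sequences are shown, since no promoter or protein sequences were used here, and the planned motif and protein comparisons were not run.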

Additional observations from a re-analysis of the deposited data

Results flagged for a closer look

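In 12 of 150 combinations of a proteasome gene with a group of 4 arrays, 1 array lay far from the other 3. Chance alone gives about 1 such group in 20. In the 24 hpf controls replicate 1 was the high array for 5 genes: *psmc1a* at 10.23 (others 10.12 to 10.13), *psmc4* at 10.49 (10.30 to 10.32), *psmd4b* at 9.11 (8.88 to 8.91), *psmd9* at 8.15 (7.97 to 8.0) and *psme3* at 9.92 (9.64 to 9.66). *psmb1* had replicate 2 of these controls high at 11.13 (11.02 to 11.04).

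In the 24 hpf morphants replicate 3 was low for *psmb1* at 11.05 (11.21 to 11.23) and for *psmd13* at 10.07 (10.17 to 10.18). In the 48 hpf morphants replicate 1 was high for *psmc1a* at 10.25 (10.13 to 10.15) and *psmc2* at 10.53 (10.41 to 10.42), and low for *psmc5* at 9.49 (9.64 to 9.66). Replicate 4 was low for *psmd2* at 8.44 (8.57 to 8.59). In the 48 hpf controls, which the rule did not cover, replicate 3 lay apart from the others in both directions. It was low for *psmd11b* at 7.20 (others 7.90 and 7.91) and high for *psmd5* at 8.07 (others 7.72 and 7.68).

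The morphant difference from controls passed the test of a change between the ages for *psmd4b* (-0.40) and *psmd7* (-0.38). Both calls were lost relative to ribosomal protein genes and with a replicate block.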

How the results depend on the processing

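The number of genes called was small between morphants and controls and moved with most settings, while none of the 6 genes called changed direction under any alternative run. Genes raised at 24 hpf numbered 2 in the reported fit, 6 with array weights, 4 with a trended and robust prior, 4 without dim probe sets, and 0 to 3 with 1 array left out. Genes raised at 48 hpf (1) numbered 2 with array weights, cyclic loess, a trended and robust prior or without dim probe sets, 11 relative to ribosomal protein genes, and 1 to 3 with 1 array left out. Genes lowered at 48 hpf (3) numbered 5 with array weights, 1 with each age fitted alone, 0 relative to ribosomal protein genes, and 1 to 5 with 1 array left out. The median difference at 48 hpf was 0.10 relative to ribosomal protein genes, where that of all genes was 0.12. Genes with a lower effect at 48 hpf (2) numbered 0 relative to ribosomal protein genes and 0 to 2 with 1 array left out. With age, genes raised in controls (1) numbered 0 with array weights or without dim probe sets, 12 relative to ribosomal protein genes, 4 with cyclic loess, 2 with a trended and robust prior, and 0 to 4 with 1 array left out. In morphants 11 genes were lowered (28) and 9 raised (0) relative to ribosomal protein genes. With a fold of at least 2, every count was 0. The shares of all genes called relative to ribosomal protein genes are not given here. The cause of the changes between settings was not tested.

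With the replicate number as a block (replicate block), 0 genes were raised at 24 hpf and 0 had a lower effect at 48 hpf: *psmc1a* (adjusted p = 0.0588), *psmd4a* (0.0632), *psmd4b* (0.0644 for the difference) and *psmd7* (0.0775 for the difference and 0.058 at 48 hpf) lost their calls. The sample titles do not say whether equal numbers mark paired samples. Same-numbered deviations correlated at 0.021 to 0.198 at 24 hpf and -0.451 to -0.076 at 48 hpf. Those with different numbers ran from -0.247 to 0.114 at 24 hpf and from -0.272 to 0.424 at 48 hpf. Pairing at 24 hpf is therefore not excluded.

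limma's default array weights stopped before convergence and gave control replicate 1 at 48 hpf a weight of 0.003. The gene-by-gene estimator, chosen after seeing this, gave it 2.61 and control replicate 3 at 48 hpf 0.156, and its counts are those above. The unconverged weights gave 7 genes raised at 24 hpf and 0 called at 48 hpf. Signal near that of the Tag controls limits what 7 of the genes can show.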
